A study of Mus musculus with 2 samples.

Results

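Interleukin-1 (IL-1) family cytokines and their receptors were followed in cells sorted from the lungs of adult and neonatal mice. Members were taken by gene symbol, and the rows Il1b, Il1a, Il1rn, Il1r2, Il1rap, Il1rl2 and Il18 were 7 of the 32285 genes in the count matrix. The mice were zbtb46-cre x rosa26-yfp animals, in which Cre under control of the Zbtb46 locus switches on a YFP reporter from the Rosa26 locus and leaves it on in the cell and its descendants. The Zbtb46 protein controls transcription in classical dendritic cells (DC), so YFP marks cells that expressed it or descend from such cells, whether or not they still do. Sorting took live cells positive for CD45.2 and YFP from adult mice of 8 weeks and from neonatal mice of 7 days, with no treatment named. There were 2 pools per age, each prepared independently and holding 5 mice or more, and the pool is the replicate (n = 2 per age). The question addressed is how these lung cells differ between adults and neonates.

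IL-1 beta, the product of Il1b, and IL-18, the product of Il18, are made as inactive precursors and are cut to their active forms by caspase-1 inside inflammasomes, whereas the IL-1 alpha precursor from Il1a is already active and acts as an alarm signal when cells die. Both IL-1 forms bind the signalling receptor IL-1R1, which then recruits the accessory chain encoded by Il1rap, a chain that the IL-33 and IL-36 receptors also use. Il1rn encodes the IL-1 receptor antagonist, which occupies IL-1R1 without signalling, and Il1r2 encodes a decoy receptor that captures IL-1 and lacks a signalling domain. Il1rl2 encodes the receptor of the IL-36 cytokines, which act at epithelial surfaces such as skin and lung. RNA levels of Il1b and Il18 say nothing of whether the protein was cut or released.

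The 7 genes lie on 4 chromosomes of the mouse genome (GENCODE M21, GRCm38, positions counted from 1). Il1r2 (ENSMUSG00000026073, chr1:40074079-40125231, plus strand) and Il1rl2 (ENSMUSG00000070942, chr1:40324610-40367562, plus strand) both lie in the receptor cluster of chromosome 1. Il1a (ENSMUSG00000027399, chr2:129299610-129309972, minus strand) and Il1b (ENSMUSG00000027398, chr2:129364570-129371139, minus strand) lie side by side on chromosome 2, and Il1rn (ENSMUSG00000026981, chr2:24336853-24351494, plus strand) lies far from them on the same chromosome. Il1rap (ENSMUSG00000022514, chr16:26581704-26730117, plus strand) and Il18 (ENSMUSG00000039217, chr9:50554827-50581840, plus strand) stand alone. The 250 bases before the RefSeq start site are shown for the 3 members whose values separated the ages most in the DC classes. They run from 5′ to 3′ on the gene's own strand in GRCm38.p6, at chr2:129371140-129371389 for Il1b, chr2:129309973-129310222 for Il1a and chr1:40324339-40324588 for Il1rl2, and none of their bases lies in an annotated exon. Capitals mark matches to the motifs that were searched for on both strands, namely a TATA box (TATAAA), AP-1 (TGANTCA), C/EBP (TTGCNNAA), NF-kB and PU.1 (GAGGAA).
Il1b: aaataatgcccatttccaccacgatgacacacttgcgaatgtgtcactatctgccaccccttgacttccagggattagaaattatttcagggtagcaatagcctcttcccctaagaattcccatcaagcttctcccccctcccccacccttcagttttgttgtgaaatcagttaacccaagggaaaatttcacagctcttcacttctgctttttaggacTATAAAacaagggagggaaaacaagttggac
Il1a: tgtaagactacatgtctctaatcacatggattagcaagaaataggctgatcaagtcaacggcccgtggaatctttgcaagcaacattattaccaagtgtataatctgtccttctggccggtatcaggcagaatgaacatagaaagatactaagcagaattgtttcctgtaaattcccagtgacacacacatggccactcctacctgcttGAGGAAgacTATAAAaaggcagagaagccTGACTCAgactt
Il1rl2: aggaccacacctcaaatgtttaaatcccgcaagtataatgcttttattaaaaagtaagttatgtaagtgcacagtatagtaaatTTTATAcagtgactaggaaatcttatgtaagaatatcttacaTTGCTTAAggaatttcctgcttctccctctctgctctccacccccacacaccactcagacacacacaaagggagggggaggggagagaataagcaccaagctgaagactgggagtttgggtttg
The Il1b window holds a TATA box 31 to 26 bases before the start site. The Il1a window holds a TATA box 32 to 27 bases, a PU.1 match 41 to 36 bases and an AP-1 match 12 to 6 bases before it. In the Il1rl2 window the TATAAA letters lie on the opposite strand, 166 to 161 bases before the start, and a C/EBP match lies 124 to 117 bases before it. Over the 32851 promoter entries of the same table, read over windows of the same length, TATAAA is found in 12.37%, TGANTCA in 6.75%, TTGCNNAA in 9.56%, the NF-kB motif in 1.21% and GAGGAA in 23.25%. No NF-kB match was found in any member's window, which says only that these letters are not there. All 7 members matched the table by symbol, through 9 entries.

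After filtering, 2031 and 1854 cells were kept from adult pools 1 and 2, against 4408 and 4446 cells from neonatal pools 1 and 2. Their median depths were 3168 and 3052 unique molecular identifiers (UMIs, 1 tag per captured RNA molecule) per adult cell, against 3715 and 3559 per neonatal cell. The pools of each age were marked with hashtags and loaded together on 1 channel, so age and channel cannot be told apart. Levels are given as CPM, the UMIs of a gene per 1000000 UMIs of all genes in the same cells. Adult pools held 0.235 and 0.129 CPM of Xist, made from the silenced X in females, against 709 and 603 CPM in neonatal pools. Adult pools held 69.7 and 76.6 CPM of Ddx3y, a gene of the Y chromosome, against 0.525 and 11.8 CPM in neonatal pools. Sex therefore differed with age, and values against the neonatal cells with Y-linked and no Xist UMIs are given beside some results. Those cells came from neonatal pool 2 alone (0 from pool 1), so these values have no neonatal replicate and are given without a p-value. The counts of alternative values in the closing section include them. Likewise, where a pool is left out, its age has 1 pool, which is assumed to vary like the pools of the other age. Within an age no barcode was shared between pools (0), and 14 were shared between ages.

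The labels call the sorted cells dendritic cells, and the data hold more than that. Cells were clustered with the IL-1 family and pathway genes left out, and clusters were named by marker lists. The DC were of 3 classes, namely type 1 classical DC (cDC1), type 2 classical DC (cDC2) and mature DC, the migratory state that expresses Ccr7 and Fscn1. Neutrophils, which are not DC, were 28.6% and 26.8% of adult cells against 9.03% and 12.8% of neonatal cells. Classical and nonclassical monocytes were the other classes tested. The clusters that make up a class differed between ages for 5 of the 6 classes. Adult cDC1 lay mostly in a cluster led by Cldn1 and Epcam (240 and 172 cells) and neonatal cDC1 in a cluster led by Xcr1 and Itgae (766 and 719 cells). Adult mature DC lay mostly in a cluster led by Ccl22 and Fabp5 (122 and 106 cells) and neonatal mature DC in a cluster led by Ccl5 and Fscn1 (413 and 392 cells). Each kind of monocyte likewise split into a mostly adult and a mostly neonatal cluster, while adult neutrophils lay in a cluster of their own (580 and 496 cells) apart from the neonatal ones.

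Of the 42 pairs of member and class, 26 held enough UMIs to be tested between ages and 16 did not. A gene was called at an adjusted p under 0.05 in edgeR's quasi-likelihood test of UMI sums per pool, with Benjamini-Hochberg adjustment over all genes of the class. In cDC1, 5 of 6 tested members were called, beside 26.6% of all genes tested there. In cDC2, 2 of 5 were called beside 16.5%, and in mature DC 2 of 3 beside 34.9%. In classical monocytes 1 of 4 was called beside 19.2%, in nonclassical monocytes 2 of 4 beside 19.3%, and in neutrophils 3 of 4 beside 32.2%. Of the 15 calls, 13 were higher in adult cells and 2 lower. Over all genes, 14.8% were called higher and 11.8% lower in adult cDC1, 9.72% and 6.82% in cDC2, 18% and 16.9% in mature DC, 11.4% and 7.81% in classical monocytes, 9.92% and 9.42% in nonclassical monocytes, and 15.9% and 16.3% in neutrophils. Pools of the ages that do not overlap are common: that held for 62.3% of genes in cDC1, 58.2% in cDC2, 67.1% in mature DC, 62.5% in classical monocytes, 59.4% in nonclassical monocytes and 64.5% in neutrophils. Members that were tested only because an adult level was high had to differ. Examples are Il1a, Il1r2 and Il1rl2 in cDC1 and Il1r2 in mature DC. These counts are therefore a description of what was measured, and nothing is read from their shares.

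**Figure D1:**
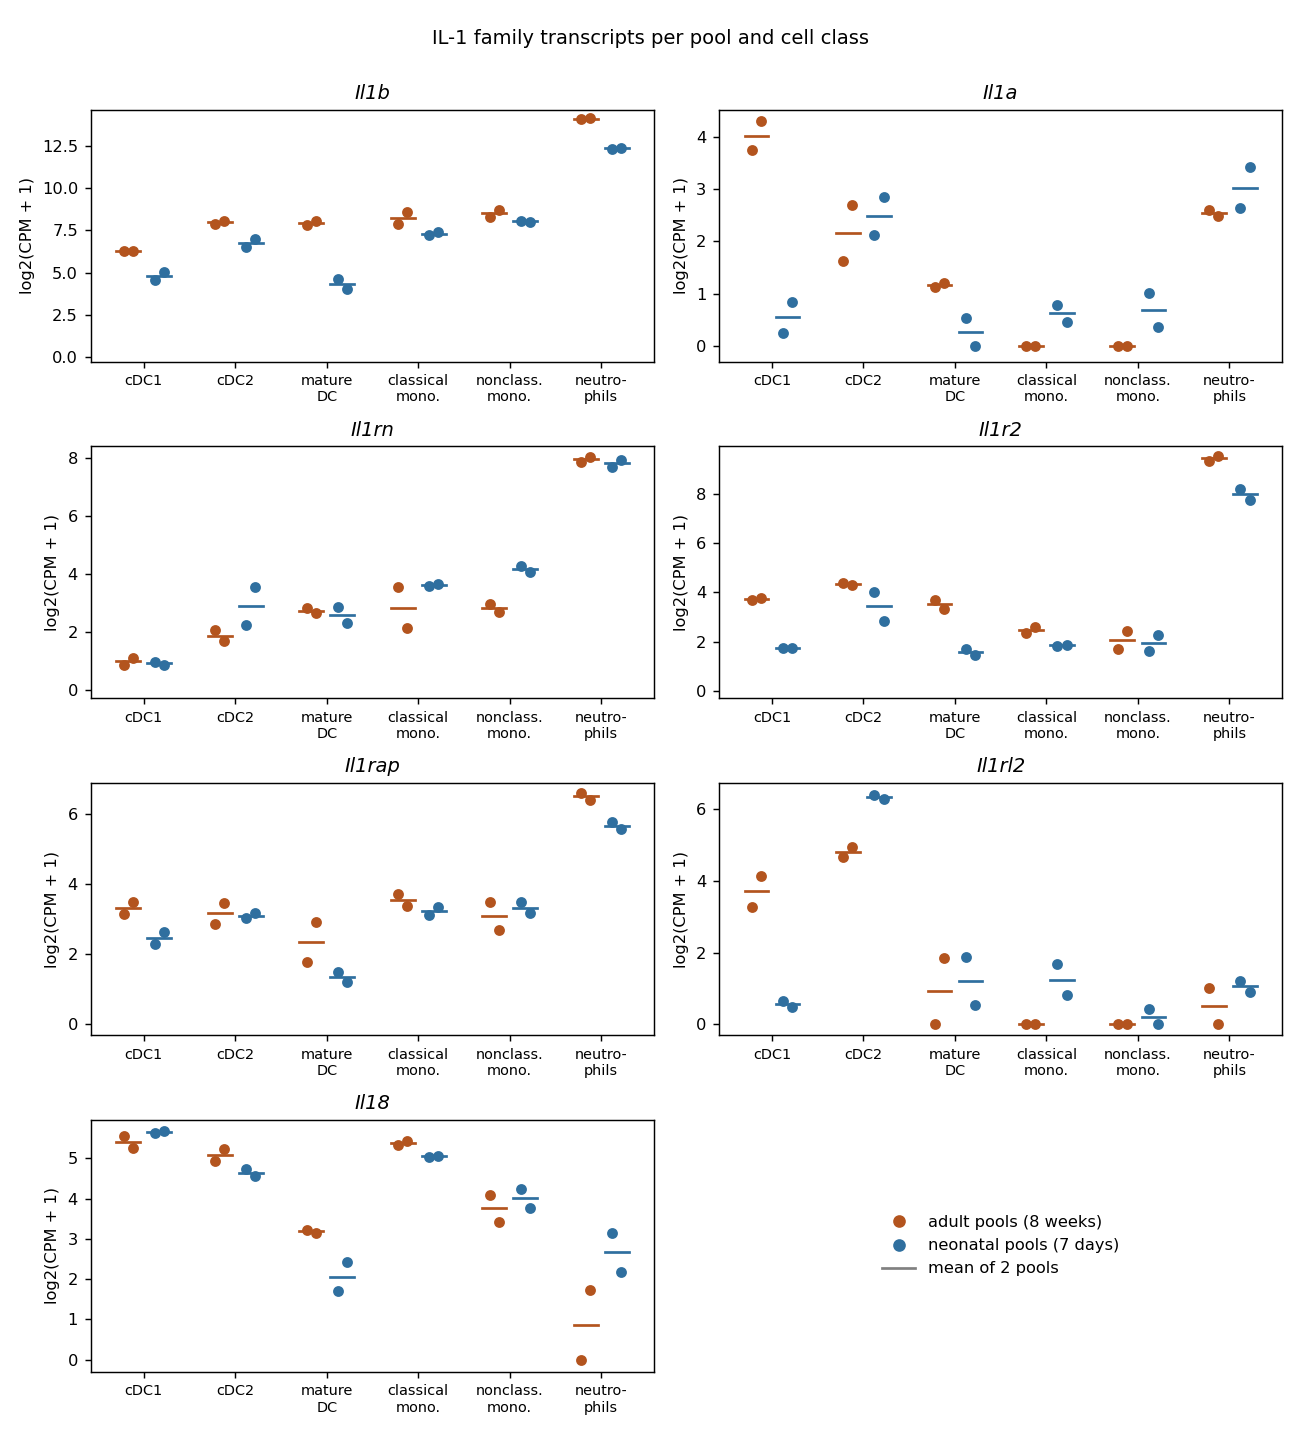
Levels of the 7 members (1 panel each) as log2(CPM + 1) on the y axis in the 6 classes on the x axis, with adult pools left of neonatal pools, 1 point per pool and a line at the mean of 2 pools. Il1b stood highest in adult neutrophils (18017 and 18546 CPM), and Il1rl2 stood highest in neonatal cDC2 (84.0 and 76.5 CPM).

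Il1b was the most abundant member in number of UMIs, with 50456 of them in the kept cells, and most were in neutrophils. Neutrophils held 93.7% and 91.6% of the Il1b UMIs of adult pools 1 and 2, against 69.9% and 77.3% of those of the neonatal pools. These shares depend on how many neutrophils each pool held. In adult pools the order of mean levels after neutrophils was nonclassical monocytes (372 CPM), classical monocytes (310 CPM), cDC2 (253 CPM), mature DC (245 CPM) and cDC1 (77.1 CPM). In that order each class overlapped the next in its adult pools from nonclassical monocytes down to mature DC, and only cDC1 lay apart below them. In neonatal pools the order was nonclassical monocytes (263 CPM), classical monocytes (158 CPM), cDC2 (108 CPM), cDC1 (27.5 CPM) and mature DC (19.4 CPM), and cDC1 and mature DC overlapped there.

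**Figure D2:**
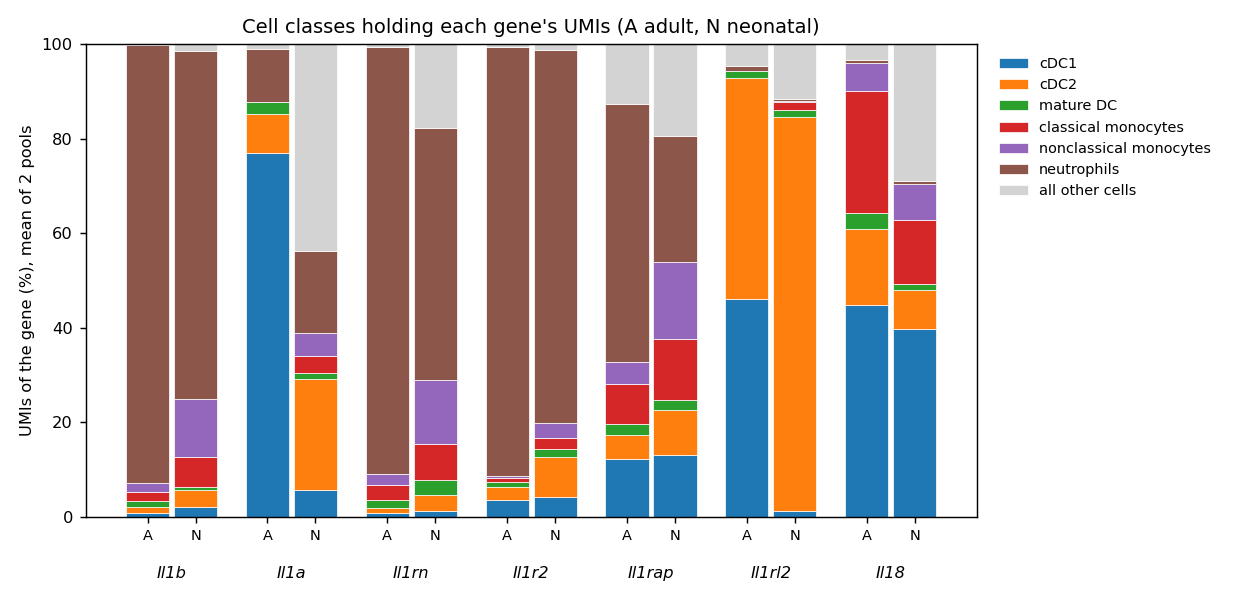
Share of each member's UMIs (percent, y axis, mean of 2 pools) held by each class, as stacked bars with adult pools (A) left of neonatal pools (N); grey stands for all other cells. Neutrophils hold most Il1b, Il1rn and Il1r2 UMIs of adult pools, and cDC2 hold most Il1rl2 UMIs of neonatal pools (84.5% and 82.3%).

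In neutrophils, the granulocytes that are the first to enter inflamed tissue, Il1b stood at 18017 and 18546 CPM in adult pools 1 and 2, against 5145 and 5536 CPM in neonatal pools 1 and 2. Both adult pools lay above both neonatal pools, with little spread within an age. The adult level was higher by 1.73 ± 0.05 on the log2 scale (SE, n = 2 per age, edgeR adjusted p = 1.1e-34). Counted per cell, the median was 28 and 30.5 Il1b UMIs in adult neutrophils, against 8 and 9 in neonatal neutrophils, at similar depths of 1649 and 1709 against 1511 and 1585 UMIs per cell. Almost no adult neutrophil lacked the RNA: 0.517% and 0.202% of adult cells had 0 Il1b UMIs, against 22.1% and 22.2% of neonatal cells. At the other end, 24.0% and 29.8% of adult neutrophils held 40 or more Il1b UMIs, against 0.754% and 0.882% of neonatal ones.

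Many neonatal neutrophils without Il1b came from 1 cluster, led by the granule genes Camp, Ngp and Ltf, which mark neutrophils that have not finished maturing. This cluster held 0 adult cells against 88 and 131 neonatal cells, and 79.5% and 80.2% of those had 0 Il1b UMIs. Its Il1b level was 225 and 237 CPM, against 8438 and 9273 CPM in the other neonatal neutrophil cluster. With that cluster left out, the adult excess of Il1b was 1.15 on the log2 scale (adjusted p = 1.5e-135) and was still called. The median of the remaining neonatal neutrophils was then 11 and 12.5 UMIs. Among the neonatal neutrophils with Y-linked and no Xist UMIs (23 cells), the adult excess was 2.18. Because whole classes were summed, more RNA per cell and more cells with the RNA cannot be told apart from the sums alone, and the counts per cell above show both.

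**Figure D3:**
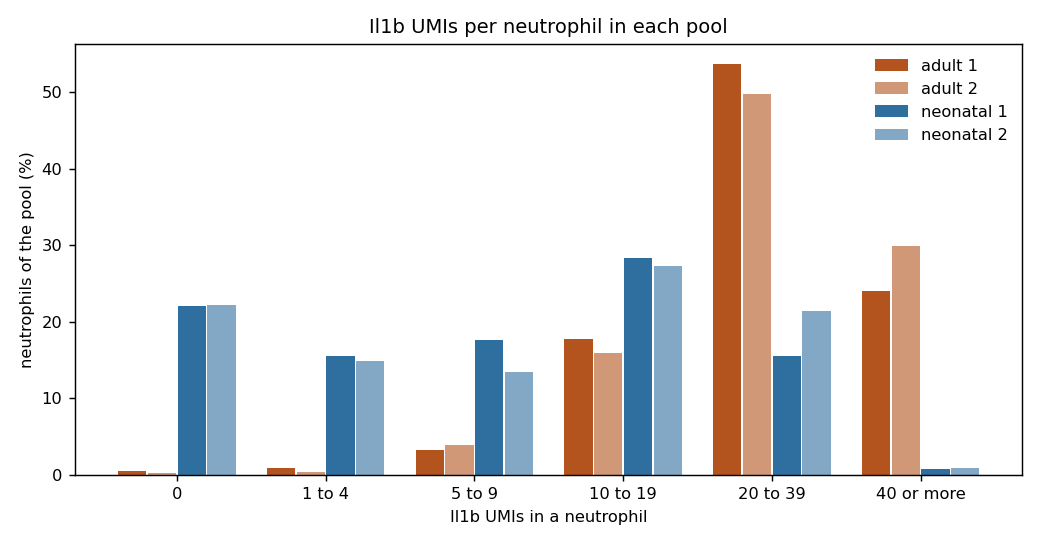
Share of neutrophils (percent of cells, y axis) by the number of Il1b UMIs in the cell (x axis), adult pools left of neonatal pools. Adult cells gathered at 20 to 39 UMIs (53.6% and 49.8% of cells), while 22.1% and 22.2% of neonatal cells had none.

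Of the 2 kinds of monocytes, Il1b passed the test in 1. In nonclassical monocytes, the patrolling cells of the vessel wall, Il1b stood at 319 and 426 CPM in adult pools against 269 and 256 CPM in neonatal pools. The adult pools were higher without overlap, by 0.63 ± 0.09 on the log2 scale (adjusted p = 7.9e-08). This value is small, and the neonatal cells with Y-linked and no Xist UMIs alone (73 cells) gave -0.076. In classical monocytes, which enter tissue and become macrophages or DC-like cells, Il1b stood at 233 and 387 CPM in adult pools against 148 and 168 CPM in neonatal pools. Adult pool 2 was far above adult pool 1, and both were above the neonatal pools. The difference of 1.16 ± 0.35 did not pass (adjusted p = 0.21). Without adult pool 1 it was 1.48 and without adult pool 2 it was 0.76. Both passed (adjusted p = 3.2e-48 and 2.7e-10), but in these fits the spread comes from the 2 close neonatal pools and that between the adult pools is removed, so they are no stronger evidence. With the pool number as a block it was 1.14 (adjusted p = 4.7e-31). The numbers did not pair the pools (r = -0.034 in this class), so that value is no stronger evidence either.

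Il1b rose in adult cells of all 3 DC classes. In cDC1, the DC that cross-present antigen to CD8 T cells, Il1b stood at 77.8 and 76.4 CPM in adult pools against 22.7 and 32.2 CPM in neonatal pools. The adult pools were nearly equal and lay well above both neonatal pools, by 1.55 ± 0.14 on the log2 scale (adjusted p = 4.9e-11). In cDC2, the DC that mainly prime CD4 T cells, the levels were 239 and 267 CPM in adult pools against 91.1 and 124 CPM in neonatal pools, again without overlap, and the difference was 1.41 ± 0.12 (adjusted p = 1.1e-21). Mature DC showed the largest fold of the 6 classes, with 223 and 267 CPM in adult pools against 23.9 and 14.9 CPM in neonatal pools, or 3.73 ± 0.18 (adjusted p = 3.6e-12). In neonatal mature DC that amounts to 53 and 34 UMIs in all, a level near that of neonatal NK cells given below.

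Detection of Il1b differed among the DC classes. It was detected in 36.3% and 43.2% of adult cDC2, against 15.3% and 15.7% of neonatal cDC2. It was detected in 28.2% and 24.3% of adult mature DC, against 5.90% and 5.37% of neonatal mature DC, and in 19.9% and 19.1% of adult cDC1 against 8.56% and 9.71% of neonatal cDC1. The 10% of adult mature DC with most Il1b held 79.6% and 92.2% of its UMIs, and single cells held up to 61 and 75. When every cell was thinned to 1000 UMIs, a UMI was left in 9.92% and 8.70% of adult mature DC against 0.952% and 1.54% of neonatal ones, in 14.1% and 16.9% of adult cDC2 against 5.53% and 4.48%, and in 5.68% and 4.78% of adult cDC1 against 1.40% and 2.46%. The ages did not overlap in any of the 3, and the two-sided exact permutation p was 0.33, the smallest that 2 pools against 2 allow.

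Neutrophil RNA can reach other droplets, and its bound was measured. From the summed level of neutrophil genes in each class, free neutrophil RNA could supply at most 7.2% and 11.6% of the Il1b level of adult mature DC and 6.5% and 5.0% of that of adult cDC2, but 16.4% and 39.5% of that of adult cDC1. These bounds are for adult pools only. In NK cells, which are not known as a source of Il1b, Il1b stood at 31.6 and 38.5 CPM in adult pools against 14.2 and 8.77 CPM in neonatal pools, and 7.4% and 9.4% of adult NK cells held a UMI against 4.2% and 2.9% of neonatal ones. Il1b was thus higher in adult NK cells too, on 2 and 2 neonatal UMIs. Neonatal mature DC (23.9 and 14.9 CPM) lay near the neonatal NK level. The part of free RNA in the age differences was not tested. The share in adult cDC1 lies above that of NK cells, but cDC1 were also deeper (7777 and 7922 against 2604 and 2717 UMIs per cell). The summed level of 14 neutrophil markers in cDC1 was 82.7 and 206 CPM in adult pools against 109 and 115 CPM in neonatal pools. In mature DC it was 108 and 226 CPM in adult pools against 179 and 171 CPM in neonatal pools, and in cDC2 it was 105 and 90.6 CPM in adult pools against 164 and 151 CPM in neonatal pools. Only 1 cDC1, of adult pool 2, held over 1% neutrophil RNA, and without it the cDC1 difference was 1.43 (adjusted p = 1.9e-09). In cDC2 and mature DC 0 cells did, so that filter tests nothing there.

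The mature DC value depended on which cells were counted. Within the cluster led by Ccl22 and Fabp5, present at both ages, Il1b stood at 238 and 283 CPM in adult pools against 49.3 and 20.7 CPM in neonatal pools, a difference of 2.91 (adjusted p = 3.7e-16). In the mostly neonatal cluster led by Ccl5 and Fscn1 the level was 15.1 and 12.5 CPM. At a finer clustering an unnamed cluster led by Fdps, Ppp1r14a and Hmgcs1 held the most Il1b of any DC cluster, at 491 and 885 CPM in adult pools against 155 and 239 CPM in neonatal pools. Of its 48 and 35 adult cells, 27 and 17 had been counted with mature DC and 18 and 13 with cDC2. Of its neonatal cells, 3 and 0 had been counted with mature DC and 19 and 22 with cDC2. With this cluster split off, the mature DC difference was 2.08 (adjusted p = 1.2e-04). With predicted doublets kept, the mature DC difference was 2.56 and no longer passed (adjusted p = 0.079). In cDC1 the cluster led by Xcr1 and Itgae, present at both ages, had 142 and 135 CPM in adult pools against 22.0 and 32.0 CPM in neonatal pools, or 2.45 (adjusted p = 1.3e-17).

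Over whole classes, the age difference of Il1b was larger in mature DC than in cDC1 or cDC2. Tested as the difference of age effects with the pool as a block, cDC1 minus mature DC gave -2.14 ± 0.25 on the log2 scale (adjusted p = 1.7e-08, beside 21.3% of genes called), with -2.78 without neonatal pool 1 and -1.50 without neonatal pool 2. The contrast cDC2 minus mature DC gave -2.33 ± 0.24 (adjusted p = 2.3e-09, beside 17.3%). These contrasts were not run within single clusters or at the finer clustering, where the mature DC difference was smaller than over the whole class. Between cDC1 and cDC2 the difference was 0.17 ± 0.17 (adjusted p = 0.70, beside 7.09%), which does not show that they are alike. Nonclassical minus classical monocytes gave -0.51 ± 0.12 (adjusted p = 7.1e-04, beside 8.16%). That call was lost without adult pool 2 (-0.36, adjusted p = 0.12), without neonatal pool 1 (-0.40, adjusted p = 0.091) and with thinned cells (-0.40, adjusted p = 0.39). Neutrophils minus classical monocytes gave 0.65 ± 0.19 (adjusted p = 0.057, beside 15.3%).

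**Figure D4:**
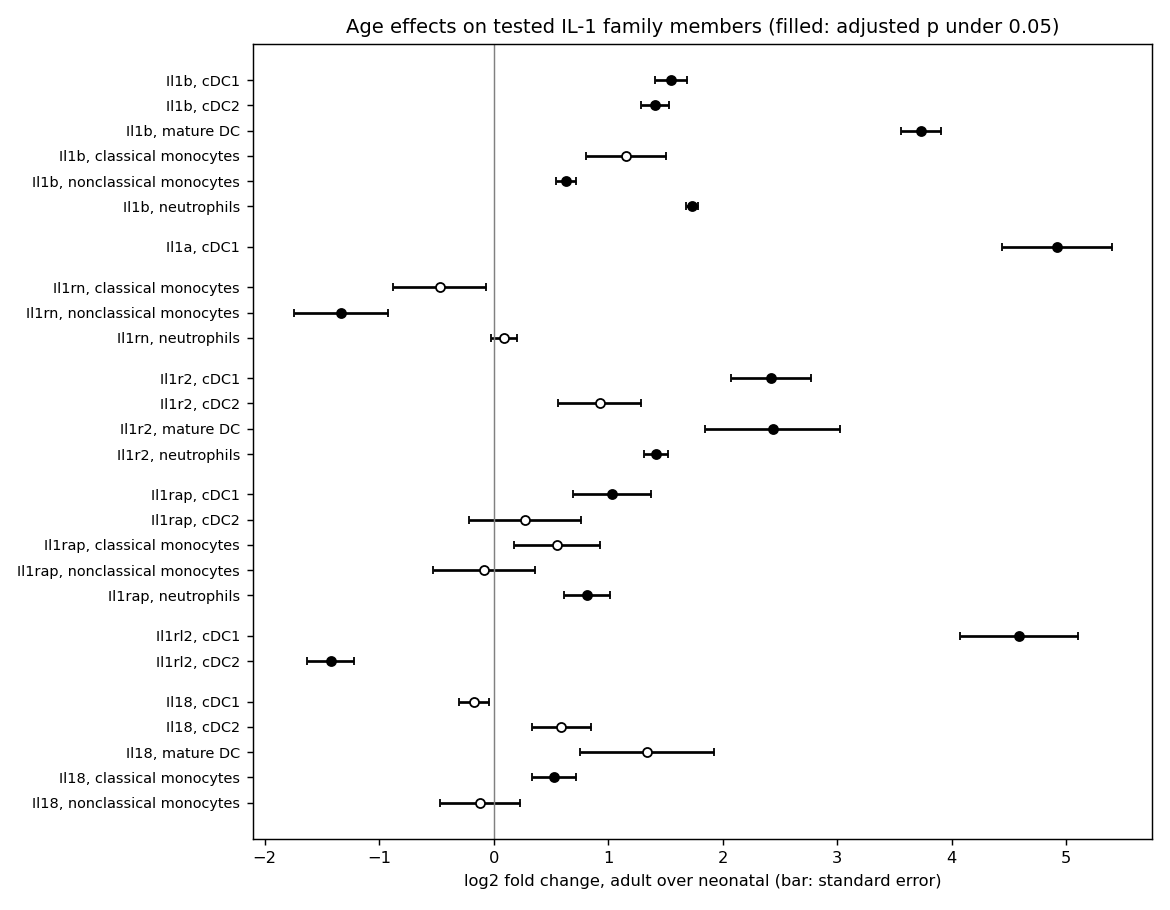
Log2 fold change, adult over neonatal, with standard error, for each member tested in each class. Filled points passed the test and open points did not. Il1b lies to the right of 0 in all 6 classes, open in classical monocytes, and Il1rl2 lies at 4.59 in cDC1 and at -1.42 in cDC2.

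Il1a was rare, with 167 UMIs in all kept cells, and most of the adult ones came from cDC1. Adult cDC1 held 30 and 33 Il1a UMIs, or 12.4 and 18.8 CPM, against 1 and 4 UMIs, or 0.192 and 0.796 CPM, in neonatal cDC1. Both adult pools lay far above both neonatal pools. Il1a entered the cDC1 test only through its adult pools, so the p-value below is a description. The ratio of the levels was 30.9, with a 95% counting interval of 12.6 to 98.4, and the fitted log2 difference was 4.92 ± 0.48 (adjusted p = 4.6e-10). Without neonatal pool 2 it was 6.09 (adjusted p = 4.9e-16) and without neonatal pool 1 it was 4.24 (adjusted p = 1.9e-13). Among neonatal cDC1 with Y-linked and no Xist UMIs (89 cells) it was 3.24. In cDC2 there were 2 and 5 adult against 9 and 11 neonatal UMIs, too few to be tested alone. The difference of age effects, cDC1 minus cDC2, was 5.13 ± 0.87 (adjusted p = 1.2e-05), on the same few neonatal cDC1 UMIs.

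Within adult cDC1, Il1a followed the cluster led by Cldn1 and Epcam, with 28 and 32 of its UMIs (15.5 and 23.4 CPM), while the cluster led by Xcr1 and Itgae held 2 and 1. In neonatal pools 37.5% and 28.9% of Il1a UMIs came from alveolar macrophages, the resident phagocytes of the air spaces, at 41.9 and 44.1 CPM. Adult pools held 0 cells named as alveolar macrophages. In adult monocytes of both kinds Il1a was at 0 UMIs in both pools, which allows up to 2.44 and 2.54 CPM in classical and 3.43 and 3.24 CPM in nonclassical monocytes (3 counts per pool).

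Il18 passed the test in none (0) of the 3 DC classes. In cDC1, which held 51.9% and 37.8% of adult and 36.8% and 42.5% of neonatal Il18 UMIs, it stood at 45.9 and 37.1 CPM in adult pools against 48.4 and 50.2 CPM in neonatal pools. The neonatal pools were slightly higher, and the difference of -0.17 ± 0.13 did not pass (adjusted p = 0.38). With each cell thinned to 1000 UMIs it was -1.27 and passed (adjusted p = 0.014). That draw left Il18 in 2.21% and 2.61% of adult cDC1 against 5.36% and 6.02% of neonatal cDC1, where the shares expected over all draws are 4.21% and 3.37% in adult pools against 4.69% and 4.89% in neonatal pools. In cDC2 the levels were 29.4 and 36.4 CPM in adult pools against 25.5 and 22.7 CPM in neonatal pools (0.59 ± 0.26, adjusted p = 0.10), and at the finer clustering the difference was 0.78 and passed (adjusted p = 0.04996). Mature DC had lower levels, at 8.40 and 7.82 CPM in adult pools against 2.25 and 4.38 CPM in neonatal pools (1.34 ± 0.59, adjusted p = 0.084). There Il18 entered the test only through its adult pools. Of the 5 classes tested, Il18 passed in classical monocytes, at 39.1 and 42.4 CPM in adult pools against 32.0 and 32.5 CPM in neonatal pools. That difference of 0.53 ± 0.19 (adjusted p = 0.0445) was small and was lost when any pool was left out: it was 0.58 (adjusted p = 0.10) without adult pool 1, 0.47 (0.22) without adult pool 2, 0.51 (0.17) without neonatal pool 1 and 0.54 (0.13) without neonatal pool 2. With the pool number as a block it was 0.525 (adjusted p = 0.0578).

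Neonatal alveolar macrophages had the highest Il18 level of any class, at 478 and 404 CPM, with 171 and 119 UMIs in 54 and 41 cells. Neutrophils were nearly without Il18, with 0 and 2 UMIs in adult pools against 6 and 4 in neonatal pools. In NK cells Il18 was at 1 and 2 UMIs in adult pools against 0 and 0 in neonatal pools.

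Il1rn, the antagonist, had 88.2% and 92.8% of its adult UMIs in neutrophils, against 45.6% and 60.9% of its neonatal UMIs, and it was not called between ages there. In neutrophils Il1rn stood at 234 and 265 CPM in adult pools against 208 and 243 CPM in neonatal pools. The pools of the 2 ages overlapped, and the difference was 0.09 ± 0.12 (adjusted p = 0.61). Without neonatal pool 1 it was -0.0098 (adjusted p = 0.97), and without the Camp, Ngp and Ltf cluster -0.28 (adjusted p = 0.079). The share of thinned neutrophils with an Il1rn UMI was 17.9% and 20.4% in adult pools against 18.8% and 20.6% in neonatal pools. For every 100 Il1b UMIs, adult neutrophils held 1.3 and 1.4 Il1rn UMIs, against 4.0 and 4.4 in neonatal neutrophils.

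In nonclassical monocytes Il1rn fell to 6.85 and 5.41 CPM in adult pools, against 18.4 and 15.6 CPM in neonatal pools. The pools did not overlap, and the difference was -1.33 ± 0.41 (adjusted p = 0.014), on 6 and 5 adult UMIs. It was lost without adult pool 1 (-1.51, adjusted p = 0.057), without adult pool 2 (-1.17, adjusted p = 0.16) and without neonatal pool 1 (-1.22, adjusted p = 0.12). In classical monocytes Il1rn stood at 10.6 and 3.39 CPM in adult pools against 10.9 and 11.5 CPM in neonatal pools, where adult pool 2 lay apart from the other 3 (-0.47 ± 0.41, adjusted p = 0.49; 0.12 without adult pool 2). Neonatal alveolar macrophages held 190 and 163 CPM. The DC classes were low, between 0.796 and 10.8 CPM, and none of them could be tested.

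Il1r2, the decoy receptor, also rose in adult neutrophils. It stood at 646 and 732 CPM in adult pools against 288 and 216 CPM in neonatal pools, without overlap, and the difference was 1.42 ± 0.10 (adjusted p = 2.2e-14). At equal depth 44.1% and 49.6% of adult neutrophils held an Il1r2 UMI, against 26.9% and 20.5% of neonatal ones. Without the Camp, Ngp and Ltf cluster, which stood at 88.1 and 95.2 CPM, the difference was 1.05 (adjusted p = 1.1e-22). The UMIs of Il1r2 per 100 Il1b UMIs were 3.6 and 3.9 in adult neutrophils and 5.6 and 3.9 in neonatal neutrophils, which overlap. Neutrophils held 90.3% and 91.4% of adult Il1r2 UMIs and 74.1% and 83.9% of neonatal ones.

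In DC the levels of Il1r2 were low, and in cDC1 and mature DC it entered the test only through its adult pools. In cDC2 it entered through its adult pools and neonatal pool 1, while neonatal pool 2 lay too low. In cDC1 it stood at 12.0 and 12.5 CPM in adult pools against 2.31 and 2.39 CPM in neonatal pools, and the pools of an age were nearly equal (2.42 ± 0.35, adjusted p = 1.3e-06). Of the adult UMIs, 29 and 21 of 29 and 22 were in the cluster led by Cldn1 and Epcam. In mature DC the levels were 12.0 and 9.13 CPM in adult pools against 2.25 and 1.75 CPM in neonatal pools (2.44 ± 0.59, adjusted p = 0.0026), resting on 10 and 7 adult against 5 and 4 neonatal UMIs. That call was lost without adult pool 1 (2.23, adjusted p = 0.089), without neonatal pool 1 (2.59, 0.19) and without neonatal pool 2 (2.25, 0.18). In cDC2 the levels were 19.97 and 18.8 CPM in adult pools against 14.99 and 6.23 CPM in neonatal pools. The adult pools were close and the neonatal pools apart, and the difference of 0.93 ± 0.36 did not pass (adjusted p = 0.0615). It passed with the pool number as a block (1.00, adjusted p = 0.041), but the numbers did not pair the pools (r = 0.044 in this class). Without neonatal pool 1 it was 1.76. Free neutrophil RNA could supply at most 13.4% of the adult level in any of these 3 classes.

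Il1rap, the shared accessory chain, had at least 2 UMIs in every adult pool of each of the 6 classes. In mast cells and basophils it stood at 54.5 and 99.3 CPM in adult pools against 35.5 and 46.8 CPM in neonatal pools, on 6 to 16 UMIs each. In neutrophils it stood at 96.0 and 82.4 CPM in adult pools against 53.6 and 45.9 CPM in neonatal pools. The adult pools were higher without overlap, by 0.82 ± 0.20 (adjusted p = 0.0010). Without neonatal pool 2 it was 0.70 (adjusted p = 0.0635), and without the Camp, Ngp and Ltf cluster, which held 16.3 and 4.2 CPM, it was 0.32 and no longer passed (adjusted p = 0.29). In cDC1 the levels were 7.86 and 10.3 CPM in adult pools against 3.84 and 5.17 CPM in neonatal pools (1.03 ± 0.34, adjusted p = 0.021). It was lost without adult pool 2 (0.86, adjusted p = 0.17) and without neonatal pool 1 (0.83, adjusted p = 0.16), and had the opposite sign, without passing, in the Xcr1 and Itgae cluster alone (-0.48) and against neonatal cells with Y-linked and no Xist UMIs (-0.27). The values for cDC2 (0.27 ± 0.49), classical monocytes (0.55 ± 0.37) and nonclassical monocytes (-0.08 ± 0.44) did not pass.

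Il1rl2, the IL-36 receptor, was held mainly by cDC2 in neonatal pools and by cDC1 and cDC2 in adult pools. Over these whole classes its age differences had opposite signs. In cDC2 it fell to 24.2 and 29.8 CPM in adult pools, against 84.0 and 76.5 CPM in neonatal pools. The pools of each age were close together and far from the other age, and the difference was -1.42 ± 0.21 (adjusted p = 1.6e-09). It was detected in 15.6% and 21.2% of adult cDC2 against 39.7% and 35.8% of neonatal cDC2, and, at equal depth, in 2.96% and 4.24% against 8.29% and 7.46%. Against the neonatal cDC2 with Y-linked and no Xist UMIs (24 cells) the value was -1.96, and after thinning it was -1.13 and did not pass (adjusted p = 0.16). At the finer clustering a cluster of cDC2 led by Mgl2 and Cd209a held 23.9 and 39.1 CPM in adult pools against 100.1 and 93.2 CPM in neonatal pools, and a cluster led by Retnla, C1qb and C1qa, named as interstitial macrophages, held 48.1 and 21.2 CPM in adult pools against 49.7 and 51.1 CPM in neonatal pools. The main cDC2 class holds both.

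In cDC1, Il1rl2 stood at 8.69 and 16.5 CPM in adult pools, against 0.576 and 0.398 CPM in neonatal pools. That is 21 and 29 adult against 3 and 2 neonatal UMIs, a ratio of 24.5 with a 95% counting interval of 9.84 to 78.8, and the fitted difference was 4.59 ± 0.52 (adjusted p = 1.0e-08). Il1rl2 entered the cDC1 test only through its adult pools, so this p-value is a description. In the cDC1 cluster led by Xcr1 and Itgae, present at both ages, Il1rl2 had 0 and 1 adult against 2 and 0 neonatal UMIs. The difference of age effects was 6.001 ± 0.50 for cDC1 minus cDC2 (adjusted p = 2.5e-15), and with thinned cells it was 3.17 and did not pass (adjusted p = 0.19). For cDC1 minus mature DC it was 4.87 ± 1.44 (adjusted p = 0.010), lost without neonatal pool 1 (3.36, adjusted p = 0.49) and at 9.46 without adult pool 2. Neonatal alveolar macrophages held 39.1 and 40.7 CPM, whereas adult monocytes of both kinds were at 0 UMIs.

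In adult cDC1, much of the Il1rl2, Il1a and Il1r2 RNA lay in 1 small cluster. At the finer clustering 57 and 60 adult cells, against 7 and 2 neonatal cells, formed an unnamed cluster led by Plet1, Cldn1, Ccl17 and Epcam, and 57 and 59 of the adult cells had been counted with cDC1. This cluster held 19 and 23 Il1rl2 UMIs (48.6 and 53.9 CPM), 16 and 25 Il1a UMIs (41.0 and 58.6 CPM) and 20 and 16 Il1r2 UMIs (51.2 and 37.5 CPM). Its Il1b level was 148 and 162 CPM. At this clustering 252 and 165 adult cells were named cDC1, in place of 317 and 230, so more cells than these were set apart. There 2 of the 7 members were called in place of 5, namely Il1b (1.08, adjusted p = 6.8e-05) and Il1a (3.74, adjusted p = 4.8e-06). Il1rl2 and Il1r2 held too few UMIs to be tested there. Of the 16 and 17 adult cDC1 with Il1rl2, 1 and 3 also held Il1a, or 6.25% and 17.6%, beside 6.98% and 7.04% of the other adult cDC1.

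**Figure D5:**
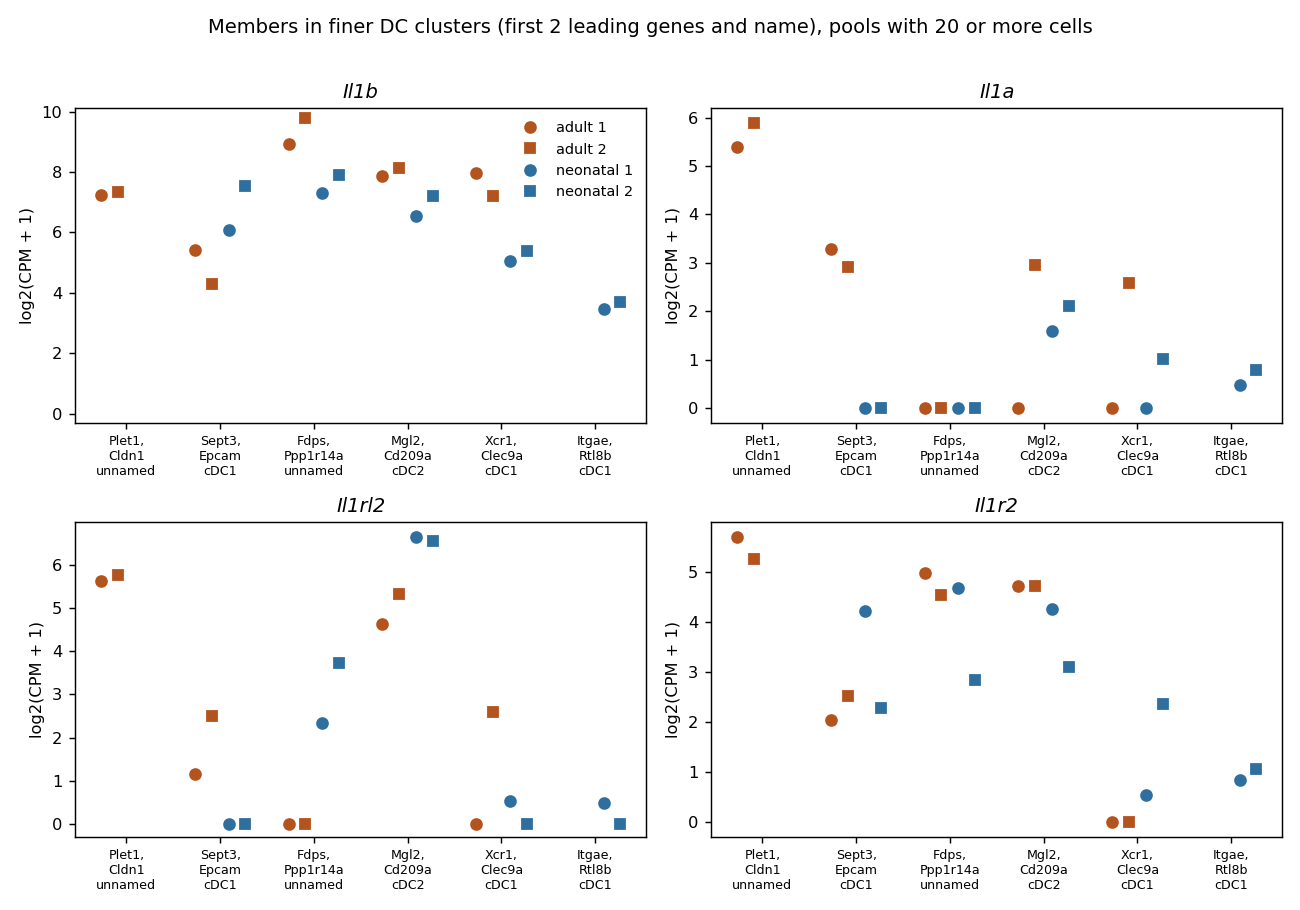
Levels of Il1b, Il1a, Il1rl2 and Il1r2, as log2(CPM + 1), in the finer DC clusters, named by their 2 leading genes, with adult pools left of neonatal pools and a point for each pool with 20 or more cells. The Plet1 and Cldn1 cluster has points for the adult pools only and holds 48.6 and 53.9 CPM of Il1rl2, and the Fdps and Ppp1r14a cluster holds the most Il1b.

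Other IL-1 family ligands and receptors were sparse. Of 18 listed genes, 14 were in the matrix and 1 to 4 could be tested per class. Il1r1, the signalling IL-1 receptor, rose in adult cDC2 to 30.5 and 33.1 CPM, against 13.9 and 7.93 CPM in neonatal cDC2 (1.63 ± 0.31, adjusted p = 7.0e-06). Il18r1, a chain of the IL-18 receptor, rose in adult cDC1 (11.6 and 9.12 against 0.769 and 0.398 CPM; 4.14 ± 0.49, adjusted p = 3.5e-08). There it entered the test only through its adult pools, so that p-value is a description. It also rose in adult mature DC (50.4 and 49.5 against 8.56 and 8.33 CPM; 2.63 ± 0.27, adjusted p = 1.4e-07). In mature DC its partner Il18rap also rose (1.60 ± 0.39, adjusted p = 0.0026) and Il18bp, which captures IL-18, fell by 1.54 ± 0.38 (adjusted p = 0.0033). In neutrophils Il1f9, which encodes the ligand IL-36 gamma, rose to 252 and 200 CPM in adult pools, against 129 and 146 CPM in neonatal pools (0.66 ± 0.13, adjusted p = 5.5e-05). Sigirr, an inhibitory member of the receptor family, fell in nonclassical monocytes by 2.12 ± 0.54 (adjusted p = 0.0021).

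Of the 24 genes of inflammasomes and cytokine release, 6 rose and 0 fell of 20 tested in cDC1, and 5 rose and 0 fell of 21 in cDC2. In mature DC 2 rose and 2 fell of 15, in classical monocytes 6 rose and 1 fell of 23, in nonclassical monocytes 1 rose and 5 fell of 23, and in neutrophils 5 rose and 2 fell of 15. Over all genes, 14.8% rose and 11.8% fell in cDC1, 9.72% and 6.82% in cDC2, and 18% and 16.9% in mature DC. The shares were 11.4% and 7.81% in classical monocytes, 9.92% and 9.42% in nonclassical monocytes, and 15.9% and 16.3% in neutrophils. The counts were not tested against these shares. The median log2 difference of the listed genes was 0.22 in cDC1 and 0.28 in neutrophils, beside 0.00 and -0.02 over all genes tested there. In cDC1 Casp1, the protease itself, rose to 32.3 and 31.4 CPM in adult pools, against 9.80 and 11.1 CPM in neonatal pools (1.66 ± 0.19, adjusted p = 1.3e-08), and Casp4 and Txnip rose with it. In neutrophils Nlrp3, a sensor that assembles the inflammasome, rose to 574 and 513 CPM in adult pools, against 314 and 310 CPM in neonatal pools (0.76 ± 0.09, adjusted p = 2.5e-09), as did Mefv, which encodes the sensor pyrin (2.62 ± 0.28, adjusted p = 3.3e-11). Pycard, the adaptor that links sensors to caspase-1, fell in neutrophils to 18.2 and 20.6 CPM in adult pools, against 82.4 and 55.6 CPM in neonatal pools (-1.83 ± 0.27, adjusted p = 1.5e-07).

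Among 14 genes that carry the receptor's signal, 0 to 2 rose and 0 to 4 fell per class. Myd88, the adaptor of the family's receptors, rose in neutrophils (199 and 144 against 61.5 and 80.3 CPM; 1.21 ± 0.17, adjusted p = 1.0e-07) and fell in cDC1 (30.2 and 29.6 against 48.0 and 45.0 CPM; -0.58 ± 0.14, adjusted p = 0.0018). Of 26 genes that respond to IL-1 and NF-kB, 11 rose and 0 fell of 21 tested in cDC1, 8 and 0 of 22 in cDC2, 9 and 5 of 23 in mature DC, 9 and 0 of 22 in classical monocytes, 4 and 4 of 22 in nonclassical monocytes and 8 and 1 of 22 in neutrophils. The shares over all genes are those given beside the inflammasome list. Neither these counts nor those of receptor signalling were tested against them. Nfkbia, which encodes an inhibitor of NF-kB, rose in cDC1 (340 and 357 against 127 and 119 CPM; 1.55 ± 0.06, adjusted p = 1.3e-19), and Ptgs2, the inducible cyclooxygenase, rose in neutrophils (2328 and 2662 CPM in adult pools against 760 and 812 CPM in neonatal pools; 1.62 ± 0.07, adjusted p = 4.4e-25). Of 7 proteases listed as processing the family's ligands, 2 rose and 0 fell of 2 tested in cDC1 and likewise in cDC2. In mature DC 1 rose and 1 fell of 2. In classical monocytes 1 rose and 0 fell of 3, in nonclassical monocytes 1 and 0 of 2, and in neutrophils 0 of 2 were called. Ctss rose in cDC1, cDC2, mature DC and both kinds of monocytes. These counts too were not tested against the shares over all genes.

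Immediate early genes, which are also induced when tissue is dissociated, were mostly higher in adult cells where called. Of 23 such genes, 14 rose and 2 fell in cDC1, 13 and 2 in cDC2, 11 and 5 of 22 tested in mature DC, 17 and 0 of 22 in classical monocytes, 14 and 2 of 22 in nonclassical monocytes and 15 and 2 of 21 in neutrophils. The shares over all genes are again those given beside the inflammasome list, and the counts were not tested against them. The median log2 difference of the listed genes lay between 0.34 in mature DC and 0.85 in classical monocytes. In nonclassical monocytes it was 0.59, while the medians of the inflammasome, NF-kB response and receptor signalling lists there were -0.15, -0.12 and -0.12. Junb in neutrophils stood at 11074 and 10331 CPM in adult pools against 3606 and 3940 CPM in neonatal pools. Their part in the differences of Il1b and the other members was not tested.

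Patterns across the 24 sums of 6 classes and 4 pools were compared over 5578 genes with a mean of at least 20 CPM, as a description, since the sums share pools, depth and classes. The genes closest to Il1b by Pearson's r of log2(CPM + 1) were Gcnt1, Hcar2, Dusp1, Zfp36 and Stk17b (r from 0.94 to 0.95). Those closest to Il1a were Tmco3, Furin, Egr2, Plp2 and Egr3, and those closest to Il1rn were Nudt4, Dgat1, Ets2, Grina and Map1lc3b. Il1r2 was closest to Slc2a3, Atp6v1g1, Lrg1, Gsdme and Nlrp12, and Il1rap to Per1, Nlrp3, Dhrs7 and Slc35a5. Il1rl2 was closest to Dab2 (r = 0.91), followed by Il1rl1, which encodes the IL-33 receptor, and by Mgl2, Cd209a and Fcrls. Il18 was closest to Atp5c1, Mrps14, Sdad1, Mrpl42 and Selenoh, with r up to 0.94. By Spearman's rho, 3 of these 5 genes were kept for Il1b and 1 of 5 for Il1rn, Il1r2, Il1rl2 and Il18.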

How the data were processed

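Sorted lung cells were profiled by droplet single-cell RNA-seq. The deposited matrices hold raw UMI counts per gene and hashtag, made by the authors with Cell Ranger 6.1.2 on mm10, per the submitters' processing notes. Cells with at least 500 genes, 1000 UMIs, at most 10% mitochondrial UMIs and at most 20% of hashtag counts from the other pool were kept, and Scrublet doublets were removed per channel, leaving 12739 of 14710 barcodes. Cells were clustered with scanpy 1.11.5 (2947 variable genes, 30 components, Leiden resolution 1) and clusters named by marker lists, so class names are rebuilt here. Counts were summed per pool and class and tested with edgeR 4.0.16 (TMM, quasi-likelihood, Benjamini-Hochberg over all genes of the class, threshold 0.05). Differences of age effects used an age by class term with the pool as a block. Over all their barcodes the pools held 8172362 to 20346024 UMIs. Counting intervals (95%, exact) cover counting error only. The members and lists were chosen with earlier results of these data known. All 7 members are named in each class, then up to 4 called genes per list by smallest p, and the 5 genes closest in pattern, of which 1 for Il1rap is not reported here. Some examples were taken from several classes. Alternatives were DESeq2 1.42.0, other filters, thinning, doublets kept, finer clusters, leaving out each pool and a replicate block. The single-cluster, Camp cluster and crossed-block alternatives were chosen after seeing the data. Same-numbered pools did not deviate together (r from -0.22 to 0.05 per class). Free neutrophil RNA was bounded from neutrophil genes, as an upper limit.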

Additional observations from a re-analysis of the deposited data

Results flagged for a closer look

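The age effect, adult over neonatal, differed between classes for 7 results in a test of the difference itself (edgeR, adjusted over all genes, n = 2 pools per age). Il1a differed by 5.13 on the log2 scale between cDC1 and cDC2 (adjusted p = 1.2e-05), ranging from 4.81 to 5.75 when a pool was left out. Il1rl2 differed by 6.001 between cDC1 and cDC2 (adjusted p = 2.5e-15) and by 4.87 between cDC1 and mature DC (adjusted p = 0.010). Il1a and Il1rl2 had few neonatal cDC1 UMIs and entered the cDC1 test only through their adult pools. Their contrasts were of whole classes. In the Xcr1 and Itgae cluster of cDC1, Il1rl2 had 0 and 1 adult against 2 and 0 neonatal UMIs. Il1b differed by -2.14 between cDC1 and mature DC (adjusted p = 1.7e-08) and by -2.33 between cDC2 and mature DC (adjusted p = 2.3e-09). Both contrasts were of whole classes and were not run within single clusters. Il1b differed by -0.51 between nonclassical and classical monocytes (adjusted p = 7.1e-04). Il18 differed by -2.74 between neutrophils and classical monocytes (adjusted p = 0.046), on 0 and 2 adult against 6 and 4 neonatal neutrophil UMIs, and was lost without adult pool 1 (-1.76, adjusted p = 0.33) or neonatal pool 1 (-2.16, adjusted p = 0.31).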

How the results depend on the processing

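Of the 15 called results, recomputed in 227 alternative values, 192 kept direction and side of the threshold, 32 no longer passed and 3 changed sign. Of the 11 that were not called, in 154 values, 125 were unchanged in both, 12 passed and 17 changed sign. The thinned Il18 in cDC1 (-1.27, adjusted p = 0.014) and Il18 in cDC2 at resolution 2 (0.78, adjusted p = 0.04996) were among those that passed. These counts include the filter on neutrophil RNA, which removed 1 cDC1 and 1 nonclassical monocyte and 0 cells of the other classes, so its values say nothing about stability. The counts leave out any alternative in which a member held too few UMIs to be tested. Il1rl2 in cDC1, for example, has 13 values where the class had 17 alternatives. The causes of these changes were not tested, except that thinning and single clusters leave fewer UMIs. Under DESeq2's Wald test the genes called were 1267 in cDC1, 435 in cDC2, 1310 in mature DC, 656 in classical and 676 in nonclassical monocytes and 835 in neutrophils, in place of 2635, 1402, 2703, 1643, 1680 and 1864, and 1 member was called in mature DC and 1 in nonclassical monocytes. With cells thinned to 1000 UMIs, in the same order, they were 664, 242, 1014, 475, 810 and 934, with 2 members called in cDC1, 1 in cDC2, 1 in mature DC and 1 in nonclassical monocytes. Thinning left 134 genes for the difference cDC1 minus cDC2, 611 for cDC1 minus mature DC, 368 for cDC2 minus mature DC, 232 for nonclassical minus classical monocytes and 354 for neutrophils minus classical monocytes. Against neonatal cells with Y-linked and no Xist UMIs only, which are of 1 pool, they were 883, 335, 680, 240, 434 and 264, with 1 member called in mature DC, 0 in classical and 0 in nonclassical monocytes. Within 1 cluster 734 genes and 1 member were called in cDC1, and 560 genes and 1 member in mature DC. Without the Camp, Ngp and Ltf cluster 1176 genes were called in neutrophils. At least 10 CPM left 3 members called in cDC1 and 1 in mature DC, and resolution 2 left 2 in cDC1, 4 in cDC2 and 1 in mature DC. With doublets kept 1 member was called in mature DC and 0 in classical monocytes, with IL-1 genes kept 1 and 0, with no low-count filter 0 in classical monocytes, and with the stricter cell filter 1 in nonclassical monocytes. The stricter cell filter could not be run for neutrophils.

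Leaving out a pool gave 691 to 1230 genes called in cDC2, 1624 to 2357 in mature DC and 1131 to 1547 in neutrophils. It gave 423 to 655 for cDC1 minus cDC2, 850 to 1259 for cDC2 minus mature DC, 453 to 554 for nonclassical minus classical monocytes and 838 to 913 for neutrophils minus classical monocytes. It gave 1 to 2 members called in mature DC, 0 to 1 in classical and 1 to 2 in nonclassical monocytes. Signs changed among results that were not called when a pool was left out: Il1rap in cDC2 ranged from -0.090 to 0.58, Il1rn in classical monocytes from -1.52 to 0.12, Il1rap in nonclassical monocytes from -0.61 to 0.31, Il18 there from -0.51 to 0.20 and Il1rn in neutrophils from -0.0098 to 0.22. Il18 in cDC1 turned to 0.045 at resolution 2, 0.022 against Y-linked cells and 0.18 in 1 cluster. Il1rap in cDC1 turned to -0.27 against Y-linked cells and -0.48 in 1 cluster. Against Y-linked cells Il1r2 in cDC2 was -0.44, Il1b in nonclassical monocytes -0.076, Il18 there 1.46 and Il1rn in neutrophils -0.34. Il1rn was 0.017 in classical monocytes at resolution 2, and in neutrophils -0.14 after thinning and -0.28 without the Camp cluster. In nonclassical monocytes Il1rap was 0.44 after thinning and Il18 0.031 with the stricter filter. The neutrophil share with Il1rn differed by 0.235 percentage points unthinned, in place of -0.59. Of the 5 genes closest by Pearson's r, Spearman's rho kept 3 for Il1b, 2 for Il1rap and 1 each for Il1rn, Il1r2, Il1rl2 and Il18.

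With the pool number as a replicate block, Il18 in classical monocytes no longer passed (0.525, adjusted p = 0.0578), while Il1r2 in cDC2 (1.00, adjusted p = 0.0413) and Il1b in classical monocytes (1.14, adjusted p = 4.7e-31) passed; it changed no other member's call. The numbers did not pair the pools, so this block rests on numbers alone. With the crossed replicate block in neutrophils, 1899 genes and 3 members were called.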

Other observations

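Il1b and Il1rn were detected together in neutrophils. Of the adult neutrophils with an Il1rn UMI, 163 of 164 in pool 1 and 157 of 157 in pool 2 also held Il1b, against 96 of 111 in neonatal pool 1 and 149 of 179 in neonatal pool 2. Among neutrophils without Il1rn, 99.5% and 99.7% of adult cells held Il1b, against 74.6% and 75.3% of neonatal cells, and the difference was not tested.

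In cDC2, Il1rl2 and Il18 were both present. Of the cDC2 with an Il18 UMI, 4 of 23 and 5 of 25 adult cells also held Il1rl2, against 26 of 60 and 19 of 36 neonatal cells. Among cDC2 without Il18, the shares with Il1rl2 were 15.2% and 21.5% in adult pools against 39.1% and 33.2% in neonatal pools. These shares were not tested, and cells with more UMIs are more likely to show both genes.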
